A study of Homo sapiens with 16 samples.

Results

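The 10 genes described here encode carriers that move peptides and amino acids across the membrane of intestinal epithelial cells. They are SLC15A1 and SLC36A1, which use the proton gradient, SLC1A1, SLC1A5 and SLC38A2, which use the sodium gradient, and SLC3A1, SLC3A2, SLC7A1, SLC7A5 and SLC7A7, the cationic and heteromeric amino acid transporters. The members were chosen by gene name among the 27719 names on the array. No rule on their values was used, but earlier results of these data were known. Every probe of theirs that is not a control was taken. This gave 16 probes of the 40982 tested. SLC1A5, SLC3A1, SLC7A7 and SLC36A1 had 1 probe, and the other 6 genes had 2 probes each. A gene with 2 probes is described by the brightest, the one with the higher mean over all arrays.

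Expression was measured with single-colour microarrays in Caco-2 cells, a human line from a colon carcinoma that can form an enterocyte-like epithelium and was used undifferentiated. Each of the 16 arrays held the RNA of 1 culture. All cultures were kept in the same medium with a low share of serum for 6 h, and all were detached with trypsin before RNA extraction. The 4 MED-CTL cultures received medium alone. The 4 p31-43 cultures received 150 µg/ml of p31-43, a synthetic peptide of the wheat protein gliadin. The 4 PT cultures received a pepsin and trypsin mixture that had no protein to digest, and the 4 PT-G cultures received gliadin digested with these enzymes. PT is therefore the control of PT-G, and MED-CTL the control of all the others. By the study's methods, the enzymes in PT and PT-G had been heat-inactivated before use, which was checked with a trypsin substrate. The labels describe 4 independent experiments with cells a passage or so apart in 1 cell line. The arrays carry 4 dates, called runs here, each with 1 array of every condition, and the runs form an early pair (runs 1 and 2) and a late pair (runs 3 and 4). MED-CTL replicate 2 belongs to run 1 and MED-CTL replicate 1 to run 2. For all other arrays, the replicate number equals the run. The slide number equals the run except for PT replicate 3 and p31-43 replicate 4, which lay on slide 5. Blocks for run and for slide are thus nearly the same and are not separate checks. Values are log2 normalised intensities and are listed in the order of the runs.

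Between 27660 and 33947 spots per array were well above background, and the median intensity was 153 to 410 over a local background of 48 to 65. Having 4 arrays per condition sets the precision of all values. Of 11 epithelial marker genes, 10 were well above background on all 16 arrays, among them VIL1, CDH1 and KRT20, whereas CDX1 was so on 1. PTPRC, a defining marker of leukocytes, and CDH5, a marker of endothelium, were well above background on none. The leukocyte markers CD3E, CD14 and LYZ and 3 of 5 fibroblast markers (VIM, COL1A1 and PDGFRB) were well above background on all 16 arrays, and so were PECAM1 and VWF. The mean levels of these leukocyte, fibroblast and endothelial markers ranged from 6.95 (VWF) to 11.43 (VIM). All cultures were of 1 cell line, so these readings are not taken as a mixture of cell types. In bulk RNA, fewer expressing cells and less RNA per cell cannot be told apart.

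Dietary protein leaves the gut lumen as small peptides and as free amino acids. Peptides enter the enterocyte through PepT1 (SLC15A1), where they are hydrolysed, and free amino acids enter through a set of carriers with overlapping substrates. Some carriers work alone. Others are pairs of a heavy chain, which brings the complex to the membrane, and a light chain, which transports. SNAT2 (SLC38A2) stands apart in its regulation, since its gene is induced when cells lack amino acids or lose water. It concentrates small neutral amino acids, glutamine among them.

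Without a block in the model, SLC38A2 was the member past the nominal threshold, a p under 0.01, and it was not past an adjusted p under 0.05. With PT-G, its transcript was 1.78 times the level in MED-CTL, and both of its probes moved the same way in 4 of 4 runs. With PT, it was 1.41 times the level in MED-CTL, which did not pass the threshold. SLC3A1, the heavy chain of the cystine and dibasic amino acid carrier, was 1.88 times the MED-CTL level with PT-G and 1.85 times with PT, in 4 of 4 runs each. Its runs differed widely from each other, and both differences passed the threshold with the run or the slide in the model and in no other fit with all 16 arrays. The other 8 genes lay within 0.27 of MED-CTL on the log2 scale in both comparisons, and no member passed the threshold with p31-43.

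**Figure D1:**
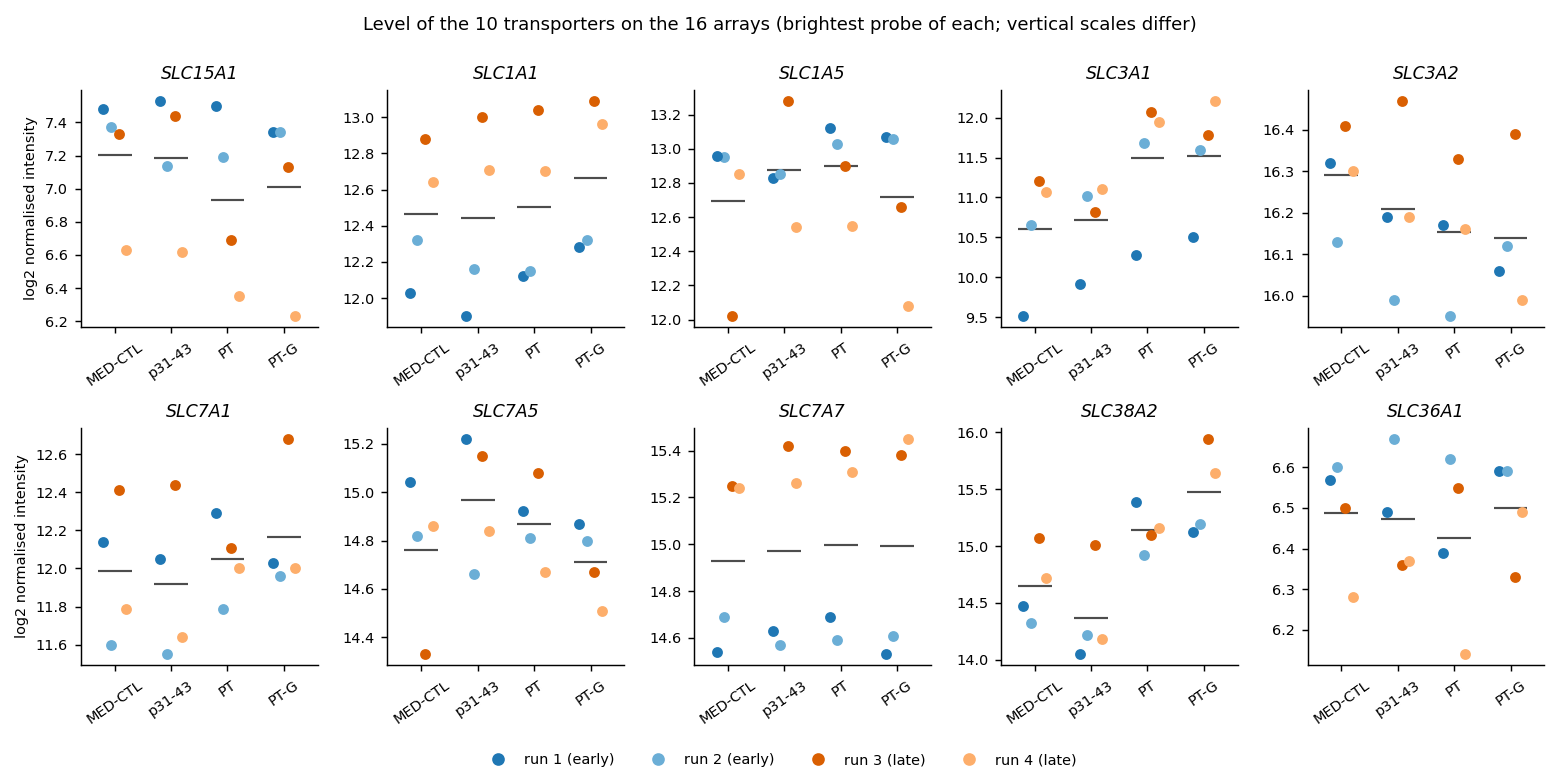
Log2 normalised intensity of each of the 10 transporters (brightest probe) on the 16 arrays, by condition. A point is 1 array, coloured by run, and a line is the mean of 4 arrays. For SLC38A2 the lowest PT-G array (15.12) lies above the highest MED-CTL array (15.07), while in SLC7A7 the early and late runs separate in every condition.

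The brightest SLC38A2 probe, A_24_P295963, read 14.47, 14.32, 15.07 and 14.72 on the MED-CTL arrays. On the PT-G arrays it read 15.12, 15.19, 15.94 and 15.64. All 4 PT-G arrays were thus above all 4 MED-CTL arrays, and the run with the highest MED-CTL array also had the highest PT-G array. The difference was 0.83 on the log2 scale (SE 0.23, n = 4 and 4, limma adjusted p = 0.157), with differences of 0.65, 0.88, 0.87 and 0.92 in the 4 runs. The 95% interval of the fold was 1.26 to 2.52. At the nominal p under 0.01 that the study's methods use, this was a rise, and at an adjusted p under 0.05 it was not. With the replicate number as a block the limma adjusted p was 0.0187, and with the run as a block it was 0.0126. The nominal call was lost when MED-CTL replicate 1, MED-CTL replicate 2, PT-G replicate 3 or PT-G replicate 4 was left out (log2 differences of 0.72, 0.77, 0.67 and 0.77).

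The other SLC38A2 probe, A_23_P218079, read 10.37, 10.40, 11.00 and 11.24 in MED-CTL and 11.15, 11.13, 12.26 and 12.27 in PT-G. The groups overlapped, since the early PT-G arrays lay between the late MED-CTL arrays, but within each run PT-G was higher by 0.74 to 1.26. The difference was 0.95 (SE 0.35, limma adjusted p = 0.372), which did not pass the threshold. It passed the threshold with the replicate number as a block (limma adjusted p = 0.00529) and with the run as a block (limma adjusted p = 0.00336). Across the 16 arrays, which share runs and cultures, the readings of the 2 probes had r = 0.887, and r = 0.947 after the mean of each run was taken off.

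PT alone brought SLC38A2 to 15.39, 14.92, 15.10 and 15.16. In run 3 this was 0.02 above MED-CTL (before rounding), and in the other runs it was higher by 0.92, 0.60 and 0.45. The PT and MED-CTL arrays of run 3 lay on different slides. The difference from MED-CTL was 0.50 (SE 0.23, limma adjusted p = 0.563) for the brightest probe, and 0.68 with the slide as a block (limma adjusted p = 0.00604). For the other probe the difference without a block was 0.62 (SE 0.35, limma adjusted p = 0.681), with 0.46 to 0.72 in the single runs. This probe passed with the run as a block (limma adjusted p = 0.0282). PT-G read 0.33 higher than PT for both probes, with 95% intervals of −0.17 to 0.83 and −0.42 to 1.07. Neither difference passed the threshold (limma adjusted p = 1.00 for both). On the p31-43 arrays the brightest probe read 14.05, 14.22, 15.01 and 14.18, lower than MED-CTL in 4 of 4 runs by 0.06 to 0.53, a difference of −0.28 that did not pass the threshold (SE 0.23, limma adjusted p = 1.00). The other probe was lower in only 2 of 4 runs.

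**Figure D2:**
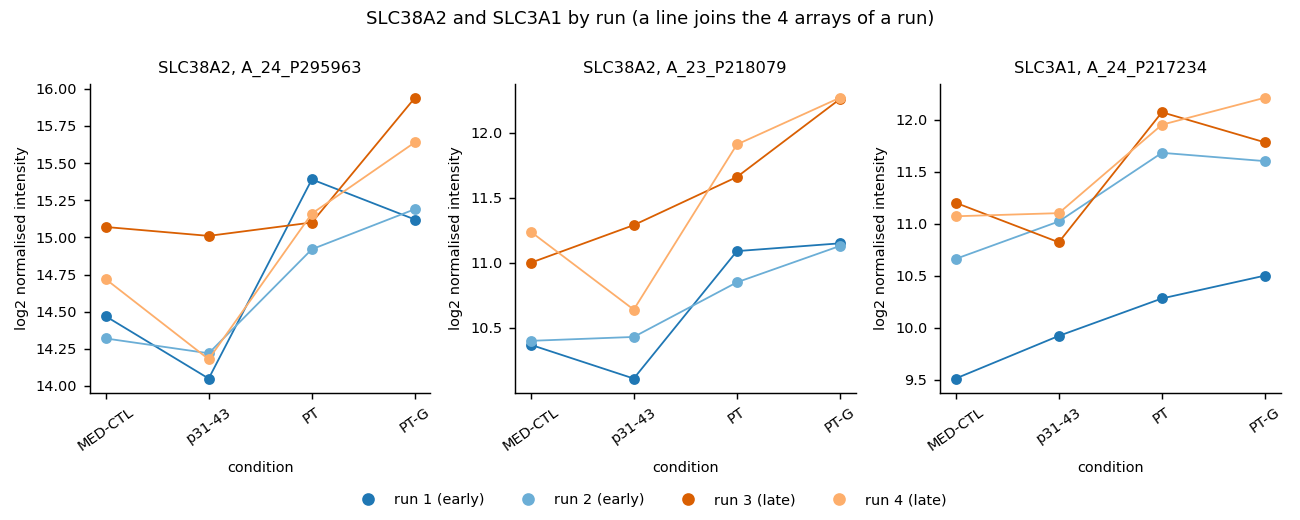
Log2 normalised intensity of the 2 SLC38A2 probes and of SLC3A1 by condition, with a line for each of the 4 runs. The MED-CTL to PT-G step is upward in all 4 runs in each panel, by 0.65 to 0.92 for A_24_P295963, 0.74 to 1.26 for A_23_P218079 and 0.58 to 1.14 for SLC3A1, while the runs themselves start from different levels.

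The bases before the transcription start of SLC38A2 are shown because this is the member past the nominal threshold without a block. RefSeq promoters on GRCh38.p14 were at hand for 9 of the 10 genes, all but SLC3A1, as 16 windows of 250 bases that end at the base before a start. In the window of SLC38A2 (chr12:46372774-46373023, minus strand) none of the motifs searched was found on either strand. They were TGATGCAAT and TGATGNAAT (amino acid response elements), TTGCATCA (the core of composite sites of this kind), TGAGTCA (AP-1), GCGTGGGCG and GCGGGGGCG (EGR) and CACGTG (E-box). TGATGCAAT is a case of TGATGNAAT, and TTGCATCA read on the other strand shares all its letters with TGATGCAAT, so these searches overlap. The known amino acid response element of SLC38A2 lies in the first intron, which these windows do not reach.
SLC38A2: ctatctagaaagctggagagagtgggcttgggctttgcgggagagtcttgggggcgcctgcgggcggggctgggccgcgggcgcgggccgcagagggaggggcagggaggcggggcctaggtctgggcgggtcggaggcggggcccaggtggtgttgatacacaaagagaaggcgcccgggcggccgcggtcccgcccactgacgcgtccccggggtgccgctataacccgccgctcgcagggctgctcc

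Other members held such letters, and none of them passed the threshold in any comparison of conditions. TGAGTCA, found in 4.2% of 35116 promoters, stood in 2 of the 16 windows, in SLC15A1 at 234 bases before the start and, read on the other strand, in SLC3A2 at 37 bases. TTGCATCA, in 0.772% of promoters, stood in 1 window, that of SLC1A5 at 97 bases, also on the other strand. GCGTGGGCG, in 0.72% of promoters, stood in SLC36A1 at 24 bases. CACGTG, in 6.34% of promoters, stood in 4 windows, of SLC1A5, SLC7A5, SLC7A7 and SLC36A1. TGATGCAAT (0.216% of promoters), TGATGNAAT (0.888%) and GCGGGGGCG (4.72%) stood in none. A match is a run of letters and not a shown binding site. In the stretches below, read 5′ to 3′ on the strand of the gene, capitals mark the match.
SLC15A1 (chr13:98752884-98752922, minus strand): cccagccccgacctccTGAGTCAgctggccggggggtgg
SLC3A2 (chr11:62881646-62881684, plus strand): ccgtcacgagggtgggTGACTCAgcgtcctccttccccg
SLC1A5 (chr19:46784888-46784927, minus strand): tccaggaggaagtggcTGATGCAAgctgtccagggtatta
SLC36A1 (chr5:151447563-151447602, plus strand): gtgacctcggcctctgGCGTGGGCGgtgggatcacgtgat

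SLC3A1 encodes rBAT, a heavy chain of the brush border. The light chain that pairs with it is encoded by SLC7A9, and defects of either gene cause cystinuria. The SLC3A1 probe, A_24_P217234, read 9.51, 10.66, 11.20 and 11.07 in MED-CTL. It read 10.50, 11.60, 11.78 and 12.21 in PT-G and 10.28, 11.68, 12.07 and 11.95 in PT. Run 1 was the lowest in every condition, and the groups overlapped because the PT-G and PT arrays of run 1 fell below the MED-CTL arrays of the other runs.

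The difference between PT-G and MED-CTL was 0.91 (SE 0.48, limma adjusted p = 0.734), with 0.99, 0.94, 0.58 and 1.14 in the single runs. Between PT and MED-CTL it was 0.89 (SE 0.48, limma adjusted p = 0.665), with 0.77, 1.02, 0.87 and 0.88. With the run as a block, the SE fell to 0.13 and both differences passed (limma adjusted p = 0.00226 for PT-G and 0.00283 for PT). With the replicate number as a block they did not (limma adjusted p = 0.180 and 0.174). PT-G and PT differed by 0.03, with a 95% interval of 0.5 to 2.07 for the fold, and by between −0.29 and 0.26 in the single runs. On the p31-43 arrays SLC3A1 read 9.92, 11.02, 10.82 and 11.10, a difference of 0.10 from MED-CTL (SE 0.48). The partner SLC7A9 differed by −0.13 with PT-G and by −0.12 with PT (SE 0.16, limma adjusted p = 1.00 and 0.887).

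Neither proton-coupled carrier passed the threshold in any comparison of conditions. SLC15A1 (probe A_23_P128609) read 7.48, 7.37, 7.33 and 6.63 in MED-CTL and 7.53, 7.14, 7.44 and 6.62 with p31-43. On the PT arrays it read 7.50, 7.19, 6.69 and 6.35, and on the PT-G arrays 7.34, 7.34, 7.13 and 6.23. Run 4 was lowest in all 4 conditions. PT-G was lower than MED-CTL in 4 of 4 runs, by 0.03 to 0.40, but the difference of −0.19 did not pass the threshold with or without a block (limma adjusted p = 1.00 without one and 0.495 with the run as a block, 95% interval without a block −0.85 to 0.47). This probe was well above background on 15 of 16 arrays. The second probe of SLC15A1 (A_24_P8165) was not well above background on any array. SLC36A1, the PAT1 carrier of small neutral amino acids, read between 6.14 and 6.67, on 15 of 16 arrays well above background, and its differences from MED-CTL were 0.01 with PT-G, −0.06 with PT and −0.02 with p31-43.

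The sodium-coupled carriers SLC1A1 and SLC1A5 did not pass it either. SLC1A1, the EAAT3 carrier of glutamate and aspartate, read 12.47 ± 0.37 (SD, n = 4) in MED-CTL, 12.44 ± 0.50 under p31-43, 12.50 ± 0.45 under PT and 12.66 ± 0.42 under PT-G. SLC1A5, the ASCT2 exchanger of glutamine and other neutral amino acids, read 12.69 ± 0.45, 12.87 ± 0.31, 12.90 ± 0.25 and 12.72 ± 0.47 in the same order. The SD of SLC1A5 in MED-CTL came from 1 array. Its readings there were 12.96, 12.95, 12.02 and 12.85, so MED-CTL replicate 3 was low, and in run 3 all 3 stimulated arrays exceeded it, by 0.64 (PT-G), 0.88 (PT) and 1.27 (p31-43). Without that array the differences from MED-CTL were −0.20 (PT-G), −0.02 (PT) and −0.05 (p31-43), against 0.03, 0.21 and 0.18 with it. MED-CTL replicate 3 also had the lowest median intensity of all arrays, 153, and the part of this in its readings was not tested.

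SLC3A2 encodes 4F2hc (CD98), the heavy chain of the basolateral carriers, and SLC7A5 (LAT1, large neutral amino acids) and SLC7A7 (y+LAT1, cationic amino acids) are 2 of its light chains. SLC7A1 encodes CAT1, a carrier of arginine and lysine that needs no heavy chain. The SLC3A2 level was 16.29 ± 0.11 in MED-CTL, 16.21 ± 0.20 under p31-43, 16.15 ± 0.16 under PT and 16.14 ± 0.17 under PT-G (n = 4 each). It was lower in 4 of 4 runs with PT-G and with PT, but the differences of −0.15 and −0.14 did not pass the threshold (SE 0.12, limma adjusted p = 0.957 and 0.822, and 0.264 and 0.262 with the run as a block). Its 95% intervals, −0.40 to 0.10 and −0.39 to 0.11, were the narrowest among the brightest probes apart from those of SLC36A1.

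SLC7A5 read 15.04, 14.82, 14.33 and 14.86 in MED-CTL, and both of its probes were lowest on MED-CTL replicate 3, the array on which SLC1A5 was low. Its differences from MED-CTL were −0.05 with PT-G, 0.11 with PT and 0.21 with p31-43, and −0.19, −0.03 and 0.06 without that array. SLC7A7 stayed within 0.07 of MED-CTL in every comparison (SE 0.29, or 0.07 with the run as a block). SLC7A1 differed by 0.18 with PT-G, 0.07 with PT and −0.06 with p31-43 (SE 0.23). None of these differences passed the threshold.

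**Figure D3:**
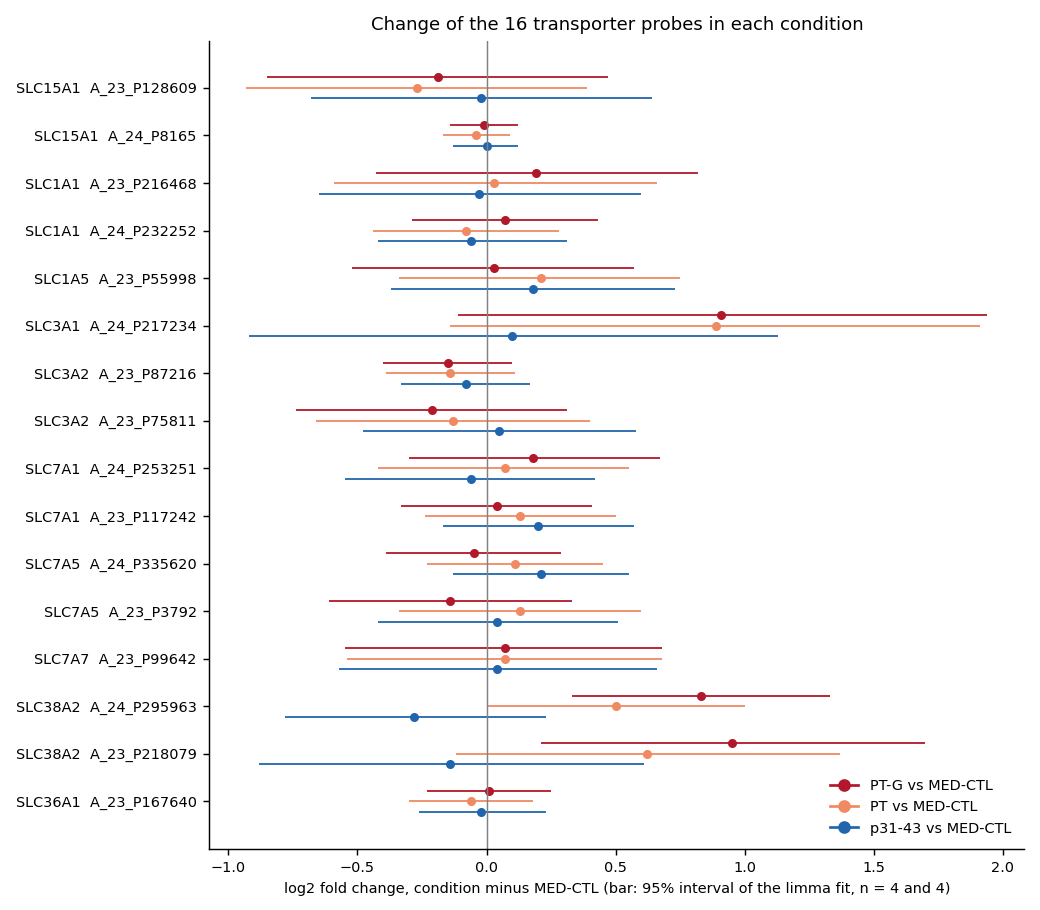
Log2 fold change of the 16 probes against MED-CTL in PT-G, PT and p31-43, with the 95% interval of the limma fit (n = 4 arrays per condition). The fit has no block. In it, only the PT-G intervals of the 2 SLC38A2 probes (0.33 to 1.33 and 0.21 to 1.70) lie wholly above 0. The SLC3A1 intervals are the widest (−0.11 to 1.94 for PT-G). With the run as a block, which is not drawn, the SE of SLC3A1 was 0.13 in place of 0.48.

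Counted over the members, 1 of 10 genes and 1 of 16 probes had a nominal p under 0.01 between PT-G and MED-CTL, where 3.44% of all 40982 probes did. Between PT and MED-CTL 0 of 16 probes did, against 3.64% of all probes. The counts were also 0 for p31-43 (0.388% of all probes) and for PT-G against PT (0.0903%). With so few members, these counts cannot be set apart from the background shares. No member reached an adjusted p under 0.05 in limma, against 0.944% of all probes for PT-G and 0.820% for PT, while 2 member probes for PT-G and 0 for PT had an unadjusted p under 0.05, against 7.98% and 8.98% of all probes. When the run was a block, 3 of 16 probes passed for PT-G (9.16% of all probes), namely those of SLC38A2 and SLC3A1, and the same 3 passed at an adjusted p under 0.05 (5.75%). For PT, 2 of 16 passed (10.3%), the second SLC38A2 probe and SLC3A1, both also after adjustment (6.56%). For p31-43, 0 passed (1.38%). Without overlap between groups there was 1 of 16 probes for PT-G (3.87% of all probes) and 0 for PT (5.08%). The comparisons with MED-CTL share its 4 arrays. The median log2 difference over the 10 genes was 0.05 for PT-G and 0.07 for PT, beside −0.01 over all probes in both.

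The runs separated most members more than the conditions did. The condition means of a probe lay farther apart than its run means in 2 of 16 probes, both of SLC38A2, and in 23.1% of all probes. For the brightest SLC38A2 probe the condition means spanned 1.11 and the run means 0.62. For SLC7A7 they spanned 0.07 and 0.77. SLC7A7 read 14.60 ± 0.06 (SD, n = 8) on the early arrays and 15.34 ± 0.09 on the late ones, with no overlap.

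With condition in the model, 5 of 10 genes and 8 of 16 probes had a nominal p under 0.01 between late and early runs, where 24.2% of all probes did. SLC7A7 was 0.73 higher late (limma adjusted p = 1.32e-06), SLC1A1 0.72 higher (limma adjusted p = 2.57e-05), SLC3A1 0.88 higher and SLC38A2 0.39 higher, and SLC15A1 was 0.56 lower (7.36 ± 0.14 early, 6.80 ± 0.45 late). The second SLC1A1 probe differed by −0.09 between the periods, and the readings of the 2 probes had r = 0.0833 over the 16 arrays, so that this difference belongs to 1 probe. The second probe of SLC38A2 also passed (0.84 higher late). So did those of SLC7A1 (−0.31) and SLC7A5 (−0.41), while the brightest probes of these genes (0.21 and −0.13) did not. What sets the early and late arrays apart was not tested. None of 48 tests over the 16 probes for a difference between periods in the effect of a condition passed (limma, smallest adjusted p = 0.998). The SE of these differences reached 0.78 (SLC3A1), so sizeable differences could be missed. For the brightest SLC38A2 probe, the PT effect was 0.76 early and 0.24 late, a difference of −0.53 (SE 0.36).

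**Figure D4:**
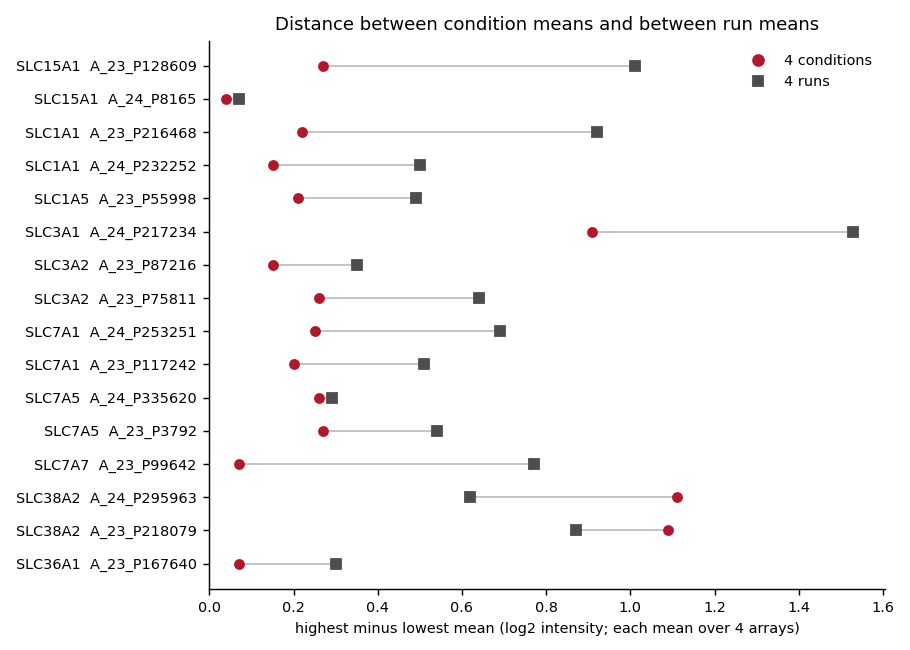
Distance between the highest and the lowest of 4 condition means (circles) and of 4 run means (squares), in log2 intensity, for the 16 probes. The circle lies to the right of the square for the 2 SLC38A2 probes (1.11 against 0.62 and 1.09 against 0.87) and to the left for the other 14.

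Among 37 other amino acid and peptide transporters on the array, 23 were well above background on all arrays and 5 on none. With PT-G, 1 passed the threshold, against 3.44% of all probes. This was SLC36A4, a carrier of proline and tryptophan, which was 0.48 higher (10.18 ± 0.31 in MED-CTL, 10.66 ± 0.19 with PT-G, limma adjusted p = 0.179) and 0.47 higher by its second probe. With the run as a block, where 9.16% of all probes passed, 5 of the 37 were higher and 0 lower. This added SLC1A3, SLC6A6, SLC6A20 and SLC38A4 (0.38 to 0.49 higher). The brightest probe of each was counted, and their other probes gave 0.04 to 0.24 with PT-G, none with a nominal p under 0.01. In the PT comparison 0 of 37 passed (3.64% of all probes), and 3 with the run as a block (10.3%). These were SLC36A4, SLC6A6 and SLC6A20 (0.32, 0.28 and 0.49 higher). With p31-43, 0 passed in either fit (0.388% and 1.38% of all probes). The median log2 difference of this list was 0.01 for PT-G and 0.03 for PT.

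SLC38A2 is a known target of the amino acid response, in which ATF4 raises carriers and biosynthetic enzymes. Of 23 genes of this response, all on the array, 1 passed with PT-G (3.44% of all probes) and 1 with PT (3.64%). Both times it was ATF3, a stress-induced transcription factor. ATF3 read 12.20 ± 0.14 in MED-CTL, 12.14 ± 0.24 under p31-43, 13.07 ± 0.24 under PT and 13.34 ± 0.15 under PT-G. It was 1.14 higher with PT-G and 0.87 higher with PT (limma adjusted p = 0.00136 and 0.00824), and by its other probe 0.95 and 0.68. With the run as a block, 9.16% of all probes passed for PT-G and 10.3% for PT. In that fit TRIB3, a pseudokinase (0.48), and PPP1R15A, a phosphatase subunit (0.85), were also higher with PT-G. TRIB3 was higher with PT too (0.48, limma adjusted p = 0.0385). ATF4 itself differed by 0.08 with PT-G and by −0.07 with PT. ASNS, the asparagine synthetase, differed by −0.19 and −0.24, and neither gene passed the threshold in either fit. The second probe of STC2 was 0.48 higher with PT-G and passed only with the run as a block. Its brightest probe differed by −0.15. With p31-43, 0 of the 23 passed (0.388% of all probes), and 1 with the run as a block (1.38%). This was the kinase EIF2AK4 (0.49, limma adjusted p = 0.668).

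Of 17 accessory and regulatory proteins, such as scaffolds, ubiquitin ligases and the sodium pump, 1 passed with PT-G (3.44% of all probes). This was MYC, a transcription factor, at 14.25 ± 0.35 in MED-CTL and 15.32 ± 0.61 with PT-G (1.07 higher, limma adjusted p = 0.0963). Its other probes differed by 0.79 and −0.21 with PT-G, so that the probes of MYC disagree. With the run as a block (9.16% of all probes) the scaffold SLC9A3R2 was also higher (0.27). CDX2, a transcription factor of intestinal identity, was lower in that fit (−0.72, limma adjusted p = 0.0348). With PT and with p31-43, 0 of the 17 passed by the brightest probe without the block (3.64% and 0.388% of all probes). With the block 2 were higher with PT (10.3% of all probes passed), namely MYC (0.71) and SLC9A3R2 (0.36). The 3 lower ones were CDX2 (−0.64), SGK3 (−0.57) and PDZK1 (−0.32). Between PT-G and PT, MYC differed by 0.36, SLC9A3R2 by −0.09 and CDX2 by −0.08, none past the threshold in either fit. NEDD4L, a ubiquitin ligase, did pass with PT by both of its other probes, which were 0.32 and 0.31 higher (limma adjusted p = 0.161 and 0.187), while its brightest probe differed by −0.15. It is named after its values were seen.

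**Figure D5:**
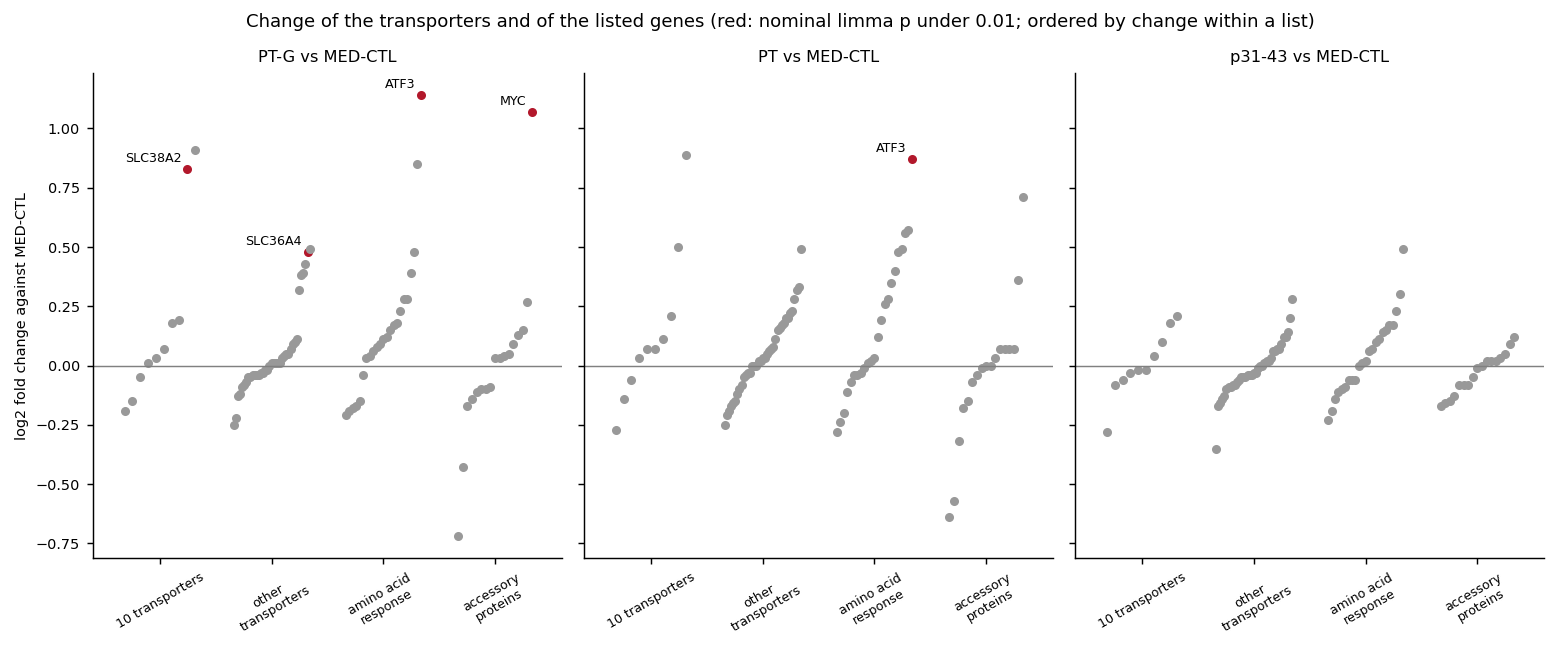
Log2 fold change against MED-CTL of the 10 transporters and of the genes on 3 lists (37 other transporters, 23 genes of the amino acid response, 17 accessory proteins), brightest probe of each. Red points had a nominal limma p under 0.01, namely SLC38A2, SLC36A4, ATF3 and MYC with PT-G, ATF3 with PT and none with p31-43.

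For 9 of the 10 members, the gene with the most similar pattern among probes well above background on all arrays is given here. For SLC3A1 it was ATP8B2, a lipid flippase (r = 0.962, and 0.907 without run means). The others were WDR1 for SLC15A1 (r = 0.984), SLC38A4 for SLC1A1 (0.973), GCS1 for SLC1A5 (0.963), C3orf58 for SLC3A2 (0.92), GATA6 for SLC7A1 (0.95), PLOD3 for SLC7A5 (0.885), PLA2G4A for SLC7A7 (0.985) and RILP for SLC36A1 (0.801), as the array names them. The arrays share runs, and without run means r fell to 0.634 for SLC7A7 and PLA2G4A and to 0.546 for SLC36A1 and RILP. These are each the highest of many correlations and are given as a description.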

How the data were processed

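RNA of 16 Caco-2 cultures, 4 per condition, was hybridised to 1 single-colour Agilent array each. The authors' image analysis (Agilent Feature Extraction 9.5.3.1) gave a spot's intensity on a linear scale as foreground and background medians, not normalised between arrays, and a processed intensity after background subtraction. The deposited log2 values equal the log2 foreground medians after quantile normalisation over all spots, to within 5e-09, with a median of 7.82 to 7.83 on every array. The other columns used are marks that the authors' image analysis deposited as other values, for control spots, outlier spots and spots well above background.

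Following the study's methods, log2 foreground medians of the 43376 spots that are not controls were quantile-normalised without background correction. The 1774 marked spots were left out (0 of a member) and the spots of a probe averaged. Probes with 3 or more unmarked arrays per group (40982 of 41000) were fitted in limma 3.58.1 (R 4.3.3), with all 4 conditions in 1 model, moderated 2-sided tests on 12 residual plus 1.88 prior degrees of freedom, and Benjamini-Hochberg adjusted p-values over all probes. A probe was called at a nominal p under 0.01, and calls at an adjusted p under 0.05 are given as well. The study's filter and re-annotation of probes were not applied, and genes carry the names of the array. Gene positions are not given, since the build of the array annotation is not given in the sources used here. Groups came from the labels. The fit was run on simulated arrays without run effects, so that check does not bear on the choice of a block.

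The text names all members and probes, listed genes with a nominal p under 0.01 (run as a block or not), ATF4, ASNS, SLC7A9, markers, and the most similar gene of each member, apart from items not reported here. The members and lists were chosen with earlier results of these data known. Motifs were searched in RefSeq promoters of GRCh38.p14.

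To check the pairing, the deviations of same-numbered arrays from their group means were correlated over 40705 probes. The 4 correlations ranged from 0.395 to 0.857 for PT-G and MED-CTL and from 0.262 to 0.707 for p31-43 and MED-CTL, so the numbers were taken to pair these samples. For PT and MED-CTL they ranged from −0.00542 to 0.411, and for PT-G and PT from 0.0492 to 0.695, and the numbers were not taken to pair these. Arrays of the same run correlated by 0.628 to 0.857 for PT-G and MED-CTL and by 0.538 to 0.707 for p31-43 and MED-CTL. For PT and MED-CTL the arrays of a run correlated by −0.00542 to 0.62, and for PT-G and PT by 0.0492 to 0.695. The run thus paired the PT arrays less evenly. Run and number differ for MED-CTL replicates 1 and 2 alone, and whether the labels exchange these was not settled.

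Alternatives were the processed signal scaled to its 75th percentile, normexp correction (offset 50), median scaling, the authors' log2 table and marked spots kept. Another kept only the 27847 probes well above background on all arrays of at least 1 condition. The rest were blocks for replicate number, run, slide or period, array weights (statmod 1.5.0), the 2 compared groups alone, and each array left out in turn.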

Additional observations from a re-analysis of the deposited data

Results flagged for a closer look

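Of 64 groups of 4 arrays, 1 for each probe and condition, 4 held an array farther from the others than Dixon's test for outliers allows, by its gap to the nearest array over the range of the group. Chance flags about 1 in 20 groups. SLC15A1, the peptide carrier, read 6.63 on MED-CTL replicate 4, below the 7.33 to 7.48 of the other MED-CTL arrays (gap over range 0.83). The other arrays of its run were also the lowest of their conditions. SLC1A5, the glutamine exchanger, read 12.02 on MED-CTL replicate 3, below 12.85 to 12.96 (0.881). SLC7A1, the carrier of arginine and lysine, read 12.68 on PT-G replicate 3, above 11.96 to 12.03 (0.906). SLC38A2 read 15.01 on p31-43 replicate 3, above 14.05 to 14.22 (0.83), and the MED-CTL and PT-G arrays of that run were the highest of their conditions too. No member passed the interaction test for a different response in the early and late runs, where SEs reached 0.78.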

How the results depend on the processing

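The rise of SLC38A2 with PT-G kept its direction in all alternatives, between 0.67 and 0.97, and its nominal p stayed under 0.01 except when MED-CTL replicate 1, MED-CTL replicate 2, PT-G replicate 3 or PT-G replicate 4 was left out (0.72, 0.77, 0.67 and 0.77, limma adjusted p = 0.357, 0.404, 0.312 and 0.356). The count of members past the threshold was 1 with PT-G. A block for run or slide made it 2, and leaving out an array made it 0 to 1. With PT it was 0, but 1 under the run block, 2 under the slide block and 1 under array weights. Calls over all 40982 probes rose in the same fits. For PT-G they went from 1408 to 3755 (run block) and 5011 (slide block). For PT they went from 1491 to 4217 (run block), 4333 (slide block) and 2513 (array weights). SLC3A1 passed under the run block and the slide block in both comparisons. SLC38A2 under PT passed with the slide block (0.68) and with array weights (0.62). With the replicate block the counts of member genes were 1 for PT-G and 0 for PT, p31-43 and PT-G against PT. Pairing by replicate number thus moved no count of genes, unlike the run block. It moved the count of member probes from 1 to 2 for PT-G and from 0 to 1 for PT. Over all probes, 3110 passed for PT-G and 3481 for PT with the replicate block. The counts of member genes for p31-43 and for PT-G against PT were 0 in every alternative. The count of genes that differed between periods, 5, ranged from 3 (without MED-CTL replicate 4) to 6. The period tests were not run with the blocks, array weights or 2 groups alone. Median scaling took the median of all probes from −0.01 to −0.11 for PT against MED-CTL. The causes of these shifts were not tested.

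In 87 fits a log2 difference changed sign. None of these values passed the threshold in either fit, and the largest of them was 0.21 in the fit reported. Median scaling gave 0.04 for SLC7A5, −0.03 for SLC36A1 (PT-G vs MED-CTL), 0.07 for SLC1A1, 0.05 for SLC7A1 (p31-43 vs MED-CTL), 0.03 for SLC3A2, 0.03 for SLC7A7 (PT-G vs PT). Array weights gave −0.05 for SLC7A7 (PT-G vs MED-CTL), −0.01 for SLC7A5 (PT vs MED-CTL), −0.04 for SLC1A5 (p31-43 vs MED-CTL), −0.18 for SLC3A1, 0.01 for SLC3A2 (PT-G vs PT). The processed signal gave −0.11 for SLC36A1 (PT-G vs MED-CTL), −0.00 for SLC1A1 (PT vs MED-CTL), −0.01 for SLC7A7 (p31-43 vs MED-CTL), −0.06 for SLC15A1, 0.02 for SLC3A2, 0.01 for SLC7A7 (PT-G vs PT). Normexp correction gave 0.02 for SLC36A1 (p31-43 vs MED-CTL). The slide as a block gave −0.08 for SLC15A1, −0.05 for SLC7A1 (PT-G vs PT). The deposited table gave 0.01 for SLC3A2, 0.01 for SLC7A7 (PT-G vs PT). When an array was left out, signs changed in the following. For PT-G vs MED-CTL the ranges were −0.38 to 0.07 for SLC15A1, −0.20 to 0.24 for SLC1A5, −0.19 to 0.04 for SLC7A5, −0.09 to 0.22 for SLC7A7, −0.06 to 0.07 for SLC36A1. For PT vs MED-CTL the ranges were −0.15 to 0.17 for SLC1A1, −0.02 to 0.32 for SLC1A5, −0.06 to 0.21 for SLC7A1, −0.03 to 0.20 for SLC7A5, −0.07 to 0.21 for SLC7A7, −0.13 to 0.03 for SLC36A1. For p31-43 vs MED-CTL the ranges were −0.21 to 0.17 for SLC15A1, −0.21 to 0.16 for SLC1A1, −0.05 to 0.29 for SLC1A5, −0.26 to 0.37 for SLC3A1, −0.24 to 0.08 for SLC7A1, −0.11 to 0.18 for SLC7A7, −0.08 to 0.02 for SLC36A1. For PT-G vs PT the ranges were −0.12 to 0.34 for SLC15A1, −0.30 to 0.03 for SLC1A5, −0.38 to 0.37 for SLC3A1, −0.09 to 0.05 for SLC3A2, −0.05 to 0.20 for SLC7A1, −0.16 to 0.15 for SLC7A7, −0.02 to 0.14 for SLC36A1. Readings near background, of SLC15A1 and SLC36A1, limit what can be seen for these genes.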
